A study of Mus musculus with 10 samples.

Results

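The hypoxia-inducible factor (HIF) pathway is the transcriptional response of cells to low oxygen, and 10 of its genes were examined in brain endothelial cells (BECs): the subunits Hif1a, Epas1 and Arnt, the oxygen sensors Egln1, Egln2 and Egln3, the ubiquitin ligase subunit Vhl, and the target genes Vegfa, Adm and Bnip3. The genes were chosen by name, with earlier results of these data known. Of the 10, 9 were among the 14106 genes of the expression table, and Egln3 was not analysed here.

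Cortical BECs of female mice aged 1 year had been sequenced as 5 APP/PS1 libraries and 5 libraries of controls of the same age, labelled WT, and both groups had the same C3H/BL6 background. The APP/PS1 genotype is transgenic and leads to amyloid-beta deposits in the brain, as a mouse model of Alzheimer's disease. By the study's description the mutant precursor protein is expressed ubiquitously and not in a single cell type. The number of mice behind a library is not given in the sources used here. BECs were obtained from enzymatically dissociated cortex with myelin removal beads and CD31 microbeads and assessed by flow cytometry as CD31+CD45−. The comparison asks whether RNA of these genes differed between the genotypes.

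In oxygenated cells the prolyl hydroxylases encoded by Egln1, Egln2 and Egln3 modify the HIF alpha subunits, and the VHL protein then directs them to destruction. When oxygen falls, HIF-1 alpha (Hif1a) and HIF-2 alpha (Epas1) escape this control, join the beta subunit ARNT and bind DNA at a short core sequence near genes of blood vessel growth, glycolysis and mitochondrial turnover. HIF-2 alpha takes its other name, endothelial PAS domain protein, from its abundance in endothelium. Oxygen acts on the alpha subunits mostly through protein stability, which RNA sequencing does not measure, so the target genes are the RNA readout closest to the pathway's activity.

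The 3 target genes differ in how often the HIF core sequence occurs just upstream of them, and their promoters are shown for this reason. Each sequence is the 230 bases from 250 to 21 bases before the RefSeq transcription start on the gene's own strand (RefSeq, GRCm38.p6), at chr7:138909527-138909756 on the minus strand for Bnip3, chr7:110627407-110627636 on the plus strand for Adm and chr17:46032398-46032627 on the minus strand for Vegfa. Capitals mark the core with ACGTG as its letters, which reads CACGT when it lies on the opposite strand, and the variant GCGTG, which then reads CACGC. The palindrome CACGTG holds overlapping matches of both strands and was counted once.
Bnip3: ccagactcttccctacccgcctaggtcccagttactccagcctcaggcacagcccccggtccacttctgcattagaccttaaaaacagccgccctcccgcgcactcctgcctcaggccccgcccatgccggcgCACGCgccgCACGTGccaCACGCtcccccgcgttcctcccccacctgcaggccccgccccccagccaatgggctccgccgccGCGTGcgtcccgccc
Adm: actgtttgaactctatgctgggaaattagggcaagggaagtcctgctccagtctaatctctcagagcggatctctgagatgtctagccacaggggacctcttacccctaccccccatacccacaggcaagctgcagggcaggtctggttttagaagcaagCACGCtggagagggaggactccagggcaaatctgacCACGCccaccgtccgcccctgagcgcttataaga
Vegfa: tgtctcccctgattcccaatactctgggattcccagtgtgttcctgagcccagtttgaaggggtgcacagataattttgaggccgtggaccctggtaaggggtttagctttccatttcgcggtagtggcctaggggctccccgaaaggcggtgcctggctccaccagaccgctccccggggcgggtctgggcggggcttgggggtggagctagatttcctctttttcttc
The Bnip3 promoter held 4 matches, beginning 117, 108, 99 and 35 bases before the start, and the one at 108 was the palindrome. Adm held 2, at 90 and 54 bases, and Vegfa held none in this window. Of the oxygen sensors, Egln2 held 5 matches, Egln1 held 2 and Egln3 held 1. Hif1a held 2, Arnt 1 and Vhl 0. The RefSeq start used for Hif1a lies 6492 bases from the start of its gene position given below, which is from GENCODE M21. A match was present in the 300-base promoters, from 250 bases before to 50 after the start, of 7 of the 9 genes of the pathway with an entry (77.8%), of 29 of 36 other HIF and glycolytic target genes (80.6%), of 63.4% of the 9770 genes of the expression table with an entry, and of 43.9% of all 27025 promoters. A match is a description of the letters and not a binding site, and its absence concerns these windows alone.

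Levels are given as log2 CPM (counts scaled to a common library total) that the authors had corrected for batch, so the values stand for adjusted counts and not for reads. Library totals of adjusted counts ran from 22371766 to 126686149, and replicate 1 was the shallowest in both groups. A control and an APP/PS1 library with the same replicate number form a pair. After the correction their mean was nearly the same in every pair (SD over the 5 pairs of 0.00353 log2 units in the median gene), so a pair's libraries lie at mirror-image positions and the SDs of the groups are nearly equal by construction. Endothelial markers had nearly the same summed level in all libraries, from 14.45 to 14.52 log2 CPM in controls and from 14.43 to 14.50 in APP/PS1, with 15 of 15 markers measured. Pair 2 stood apart: the summed level of 9 oligodendrocyte markers was 5.39 log2 CPM in control 2 against 7.49 to 8.12 in the other controls, and 7.15 in APP/PS1 2 against 5.08 to 5.61 in the other APP/PS1 libraries. By the median of the 9 markers the difference in pair 2 was −0.01 log2 units, so the most abundant of them set the turn of the sum. All 9 had a lower mean in APP/PS1, 6 at an unadjusted p under 0.05 (beside 8.03% of all genes) and 0 at an adjusted p under 0.05 by limma. Results that rest on pair 2 are therefore given with and without it. In bulk RNA, fewer cells of a type and less RNA per cell cannot be told apart.

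No HIF pathway gene differed between APP/PS1 and control BECs at an adjusted p under 0.05. The log2 fold changes of the 9 genes lay between −0.04 for Vhl and 0.17 for Bnip3, which was 12.4% higher in APP/PS1. The linear model of limma with the 5 pairs as a term called 0% of the 14106 genes at this threshold, with a smallest adjusted p of 0.195. At an unadjusted p under 0.05 it called 8.03% of all genes and 0 of the 9. A difference of the same sign in all 5 pairs was found in 7.99% of all genes and 0 of the 9, and the 2 groups did not overlap in 7.88% of all genes and 0 of the 9. Of the 9, 5 were higher in APP/PS1 and 4 lower, and their median log2 fold change was 0.03, compared with −0.0038 for all genes. Each log2 fold change is the mean of 5 within-pair differences, and p values measure the spread between these libraries.

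**Figure D1:**
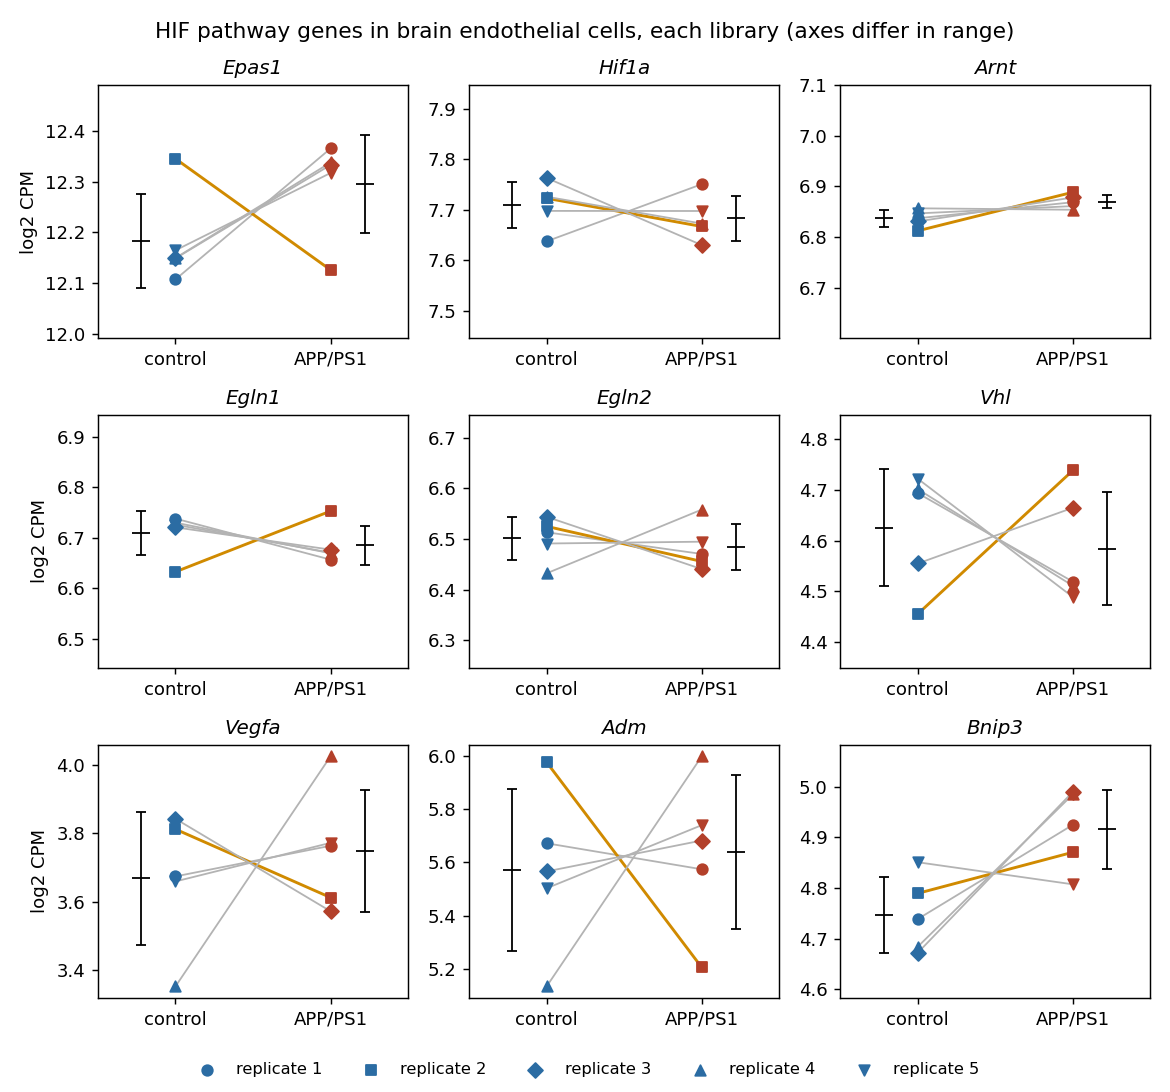
Level of each HIF pathway gene (vertical axis, log2 CPM, with ranges that differ between panels) in 5 control (blue) and 5 APP/PS1 (red) libraries. Lines join the libraries of a pair, with pair 2 in orange, and the bars beside the points give mean and SD. The groups overlap for every gene, and for Epas1 the orange line runs against the other 4.

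Among the subunits, Epas1 had by far the highest level of the pathway. Its mean of 12.24 log2 CPM lay at percentile 99.96 of all measured genes. Per kb of exons, which allows levels of different genes to be compared, Epas1 had 9.76 log2 CPM, Hif1a 5.14 and Arnt, the shared partner of both, 3.85. The Epas1 level per kb was 24.6-fold that of Hif1a on average, between 22-fold and 27.5-fold in single libraries, and 59.9-fold that of Arnt. Below Epas1 and Hif1a came Egln2 at 5.01, Adm at 4.91, Egln1 at 4.85, Arnt, Bnip3 at 3.65, Vhl at 3.02 and Vegfa at 1.61 log2 CPM per kb. Adm was the gene that changed places: it lay below Hif1a in 8 of 10 libraries, below Egln2 in 6 and above Egln1 in 6. Every other pair of genes kept its order in all 10.

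**Figure D2:**
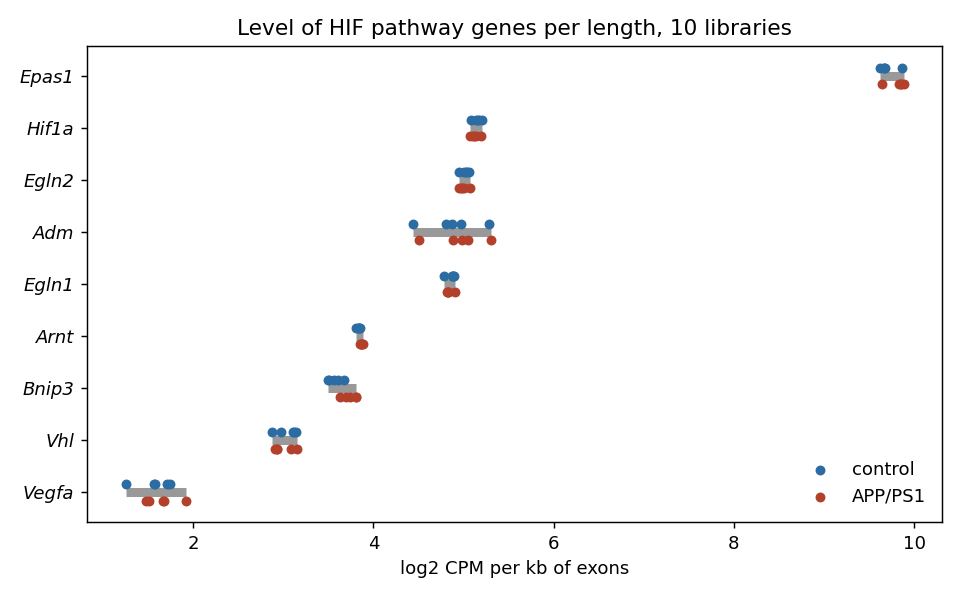
Level per length (horizontal axis, log2 CPM per kb of exons) of the 9 HIF pathway genes in control (blue) and APP/PS1 (red) libraries, with the range over 10 libraries in grey. Epas1 stands at 9.76, well above Hif1a at 5.14, and the wide range of Adm spans the levels of Egln1 and Egln2.

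Epas1, on chromosome 17 from 86753700 to 86833410 of GRCm38 (mm10), measured 12.11, 12.35, 12.15, 12.15 and 12.16 log2 CPM in control libraries 1 to 5 and 12.37, 12.13, 12.33, 12.34 and 12.32 in APP/PS1 libraries 1 to 5. The group means were 12.18 ± 0.09 and 12.30 ± 0.10 (SD, n = 5 each). Control 2 and APP/PS1 2 sat at the level of the opposite group, and without them the groups did not overlap. Because the libraries of a pair lie at mirror-image positions, this restates that the differences of the other pairs share a sign. The share of all genes that separate without pair 2 was not computed. Over all 5 pairs the log2 fold change was 0.11 (SE 0.0805, 95% interval −0.09 to 0.31, adjusted p = 0.817 by limma), with the APP/PS1 library higher in 4 of 5 pairs. The within-pair differences were 0.26, 0.18, 0.19 and 0.15 log2 units in pairs 1, 3, 4 and 5, and −0.22 in pair 2. Without pair 2 the log2 fold change was 0.20 (SE 0.0461) with an unadjusted limma p of 0.00906 and an adjusted p of 0.242, in a fit in which 14.2% of all genes had an unadjusted p under 0.05. The oligodendrocyte marker sum turned in the same pair, with differences of −3.04, 1.76, −2.14, −2.26 and −2.47 log2 units in pairs 1 to 5, and its part in the Epas1 values was not tested.

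Hif1a, on chromosome 12 from 73901375 to 73947530, measured 7.64, 7.72, 7.76, 7.73 and 7.70 log2 CPM in the controls and 7.75, 7.67, 7.63, 7.67 and 7.70 in APP/PS1. The groups overlapped, and the log2 fold change was −0.03 (SE 0.0513, 95% interval −0.15 to 0.10, adjusted p = 0.929 by limma). The APP/PS1 library was higher in 1 of 5 pairs. The within-pair differences were 0.11, −0.06, −0.13, −0.05 and −0.00019 log2 units in pairs 1 to 5. Without pair 1 the log2 fold change was −0.06, and without pair 3 it was 0.00096. As a ratio, the interval ran from 0.900-fold to 1.07-fold. Of its exon bases, 5.60% are shared with the antisense gene Gm15283, and since the strand setting of the counting is not given in the sources used here, reads of the 2 genes cannot be told apart there.

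Arnt, on chromosome 3 from 95434388 to 95497240, was the steadiest gene of the pathway. It measured 6.84, 6.81, 6.83, 6.86 and 6.85 log2 CPM in controls and 6.87, 6.89, 6.88, 6.85 and 6.86 in APP/PS1, so the whole set of 10 libraries lay within a narrow band. The SD of its within-pair differences, 0.0304 log2 units, stood at percentile 1.07 of 2908 genes within 1 log2 unit of its level. Its log2 fold change was 0.03 (SE 0.0403, 95% interval −0.07 to 0.13, adjusted p = 0.885 by limma), and −0.0039 with total adjusted counts as the scaling. Arnt was higher in the APP/PS1 library in 4 of 5 pairs, with a two-sided exact sign-flip p of 0.125. The level of Epas1 relative to Hif1a, the balance of the alpha subunits, was higher in APP/PS1 by 0.14 log2 units and in 4 of 5 pairs, with a two-sided exact sign-flip p of 0.25. With 5 pairs this test cannot go below 0.0625.

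For the oxygen sensors and Vhl, the log2 fold changes lay between −0.04 and −0.02. Egln1 encodes PHD2, the main prolyl hydroxylase acting on HIF, and is itself induced by HIF. On chromosome 8 from 124908587 to 124949324, it measured 6.74, 6.63, 6.72, 6.73 and 6.73 log2 CPM in controls and 6.66, 6.75, 6.68, 6.67 and 6.67 in APP/PS1. Control 2 was the lowest control and APP/PS1 2 the highest APP/PS1 library, and without them every control lay above every APP/PS1 library. As for Epas1, this restates the shared sign of the other 4 differences, and the share of all genes was not computed. Its log2 fold change was −0.02 (SE 0.0492, 95% interval −0.15 to 0.10, adjusted p = 0.930 by limma), and it was −0.06 without pair 2 (SE 0.0430, adjusted p = 0.574 by limma) and −0.0099 without pair 1. Egln1 thus mirrored Epas1 in which pair departed, at a smaller size: its within-pair difference was 0.12 log2 units in pair 2 and between −0.08 and −0.04 in the other 4.

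Egln2 encodes PHD1, a hydroxylase whose gene is not induced by hypoxia. It lies on chromosome 7 from 27158658 to 27166802 and measured 6.51, 6.52, 6.54, 6.43 and 6.49 log2 CPM in controls and 6.47, 6.46, 6.44, 6.56 and 6.49 in APP/PS1. Here pair 4 departed, with a difference of 0.13 log2 units, and the log2 fold change was −0.02 (SE 0.0509, adjusted p = 0.958 by limma). Without pair 3 it was 0.0043. The ratio of Egln1 to Egln2 per kb was 0.898 on average and ranged from 0.840 to 0.958, below 1 in every library.

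Vhl, the substrate-binding subunit of the ligase, lies on chromosome 6 from 113623959 to 113631633. It measured 4.69, 4.46, 4.55, 4.70 and 4.72 log2 CPM in controls and 4.52, 4.74, 4.67, 4.51 and 4.49 in APP/PS1. Each group fell into a higher and a lower set, with replicates 2 and 3 apart from 1, 4 and 5, in opposite order in the 2 groups. Vhl had a log2 fold change of −0.04 (SE 0.0927, 95% interval −0.27 to 0.19, adjusted p = 0.940 by limma), which was −0.12 without pair 2 and 0.0070 without pair 5. A processed pseudogene, Vhl-ps1, exists on chromosome 17 and was not analysed here, so how reads were divided between them is unknown.

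Of the target genes, Adm and Vegfa had the widest ranges of within-pair differences in the pathway. Vegfa, the main growth factor for endothelium, lies on chromosome 17 from 46016993 to 46032369. It measured 3.67, 3.81, 3.84, 3.35 and 3.66 log2 CPM in controls and 3.76, 3.61, 3.57, 4.02 and 3.77 in APP/PS1. Control 4 was the lowest and APP/PS1 4 the highest of all 10 libraries, and pairs 2 and 3 went the other way. Over the 5 pairs the log2 fold change was 0.08 (SE 0.143, 95% interval −0.27 to 0.43, adjusted p = 0.920 by limma), and it was 0.15 without pair 2 and −0.07 without pair 4. Vegfa was the lowest gene of the pathway, with 296 adjusted counts in the library where these were fewest.

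Adm encodes adrenomedullin, a vasodilator peptide made by endothelium, and lies on chromosome 7 from 110627661 to 110629820. It measured 5.67, 5.98, 5.57, 5.13 and 5.50 log2 CPM in controls and 5.57, 5.21, 5.68, 6.0 and 5.74 in APP/PS1. Pairs 2 and 4 were far apart and opposed, with differences of −0.77 and 0.86 log2 units, and the other 3 lay between −0.10 and 0.24. The log2 fold change of 0.07 (SE 0.222, 95% interval −0.48 to 0.62, adjusted p = 0.959 by limma) therefore rested on which of these pairs was counted: it was 0.28 without pair 2 and −0.13 without pair 4. The SD of its within-pair differences stood at percentile 99.0 of 4098 genes of like level, against 91.9 for Vegfa, 82.3 for Vhl and 60.8 for Bnip3. The genes whose 5 within-pair differences were closest to those of Adm, among 10872 genes, were Fam107a, Rnd1 and Rcan1, at root mean square distances of 0.0921, 0.103 and 0.134 log2 units. Their differences in pairs 2 and 4 were −0.58 and 0.82 for Fam107a, −0.95 and 0.78 for Rnd1 and −0.85 and 1.01 for Rcan1.

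Genes induced by tissue dissociation moved in part with these values. Of 15 such genes measured, 15 had a higher mean in APP/PS1. The median of their log2 fold changes was 0.10, and 1 gene had an unadjusted p under 0.05, beside 8.03% of all genes. Their summed level was 14.43 log2 CPM in control 4, the lowest control, and 14.94 in APP/PS1 4, the highest of all libraries, so the pair difference was 0.51 log2 units in pair 4 and between −0.11 and 0.30 in the others. Control 4 and APP/PS1 4 were likewise the lowest and highest libraries for Adm and Vegfa. The part of dissociation in the Adm and Vegfa values was not tested.

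Bnip3, which encodes a mitochondrial outer membrane protein that promotes mitophagy, had the largest log2 fold change of the pathway and the promoter richest in the HIF core among the target genes shown above. It lies on chromosome 7 from 138890836 to 138909519 and measured 4.74, 4.79, 4.67, 4.68 and 4.85 log2 CPM in controls and 4.92, 4.87, 4.99, 4.99 and 4.81 in APP/PS1. The means were 4.75 ± 0.07 and 4.92 ± 0.08 (SD, n = 5 each), and the groups overlapped only through pair 5, in which the control was higher. As for Epas1, this restates the shared sign of the differences in pairs 1 to 4, and the share of all genes was not computed. Hif1a without pair 1 and Arnt without pair 4 separated in the same way. The log2 fold change was 0.17 (SE 0.0686, 95% interval −0.00070 to 0.34), with a limma p of 0.0507 before and 0.627 after adjustment over all genes, and an exact sign-flip p of 0.125. Pairs 1 to 4 differed by 0.19, 0.08, 0.32 and 0.30 log2 units and pair 5 by −0.04. Without pair 5 the log2 fold change was 0.22 and the unadjusted limma p 0.0229 (adjusted p = 0.658), so the side of 0.05 on which the unadjusted p fell depended on small choices. An antisense gene, Gm45507, shares 22.3% of the exon bases of Bnip3, and reads of the 2 genes cannot be told apart there, although its own level was 0.84 log2 CPM.

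**Figure D3:**
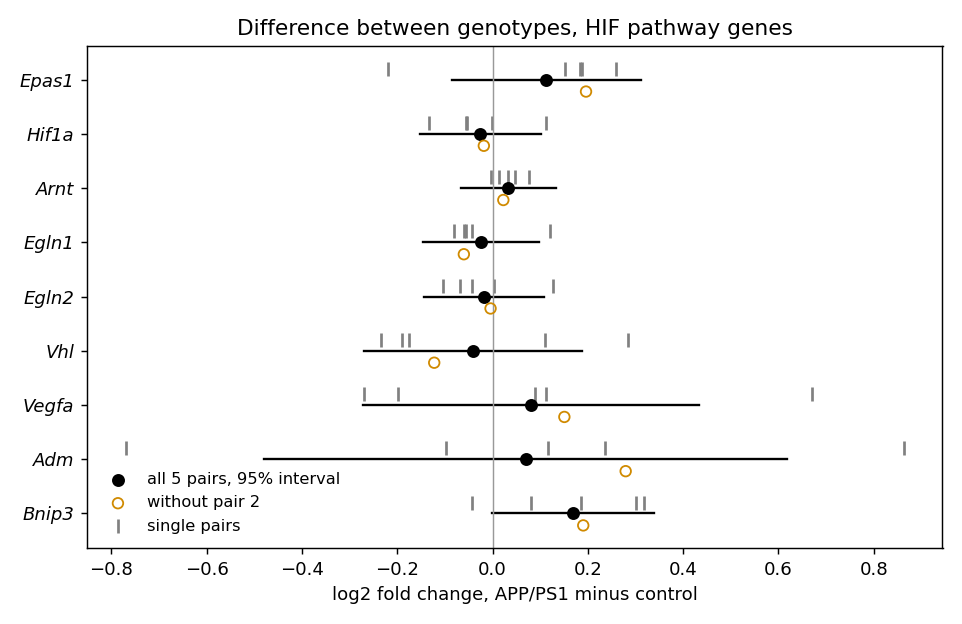
Log2 fold change (horizontal axis, APP/PS1 minus control) of each HIF pathway gene from all 5 pairs with its 95% interval (black), from the 4 pairs without pair 2 (open orange circles) and in single pairs (grey ticks). All 9 intervals include 0, that of Bnip3 by the smallest margin, and that of Adm is the widest, from −0.48 to 0.62.

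Other regulators of HIF were examined as a list of 18 genes written from general knowledge, and all 18 were measured. Of these, 7 were higher and 11 lower, with a median log2 fold change of −0.04. Beside 8.03% of all genes, 1 of the 18 had an unadjusted p under 0.05. This was Arnt2, a beta subunit used mainly by neurons, at 1.13 ± 0.33 log2 CPM in controls and −0.22 ± 0.38 in APP/PS1 (SD, n = 5 each), with a log2 fold change of −1.35 (SE 0.269, unadjusted p = 0.00265, adjusted p = 0.425 by limma). The difference was −0.12 log2 units in pair 2 and between −1.97 and −1.40 in the other 4, and the oligodendrocyte marker sum was likewise lower in the same 4 pairs. Of the neuron markers, 4 of 9 were measured, 3 of them had a lower mean in APP/PS1 and 2 an unadjusted p under 0.05, with a median difference of −1.51, −0.17, −0.51, −0.36 and −0.69 log2 units in pairs 1 to 5. Of 9 astrocyte markers, 8 had a lower mean and 3 an unadjusted p under 0.05, with a median difference of −2.57, 0.43, −1.65, −0.77 and −0.19. The summed levels of these markers overlapped, from 6.55 to 6.88 log2 CPM in controls and 6.61 to 6.94 in APP/PS1 for neurons, and from 7.44 to 7.74 and 7.43 to 7.75 for astrocytes. Each sum was set mostly by 1 gene, Stmn2 for neurons (mean 6.66 log2 CPM) and Gja1 for astrocytes (7.22). These were the only markers of their lists with a higher mean in APP/PS1, so the sums say little about the other markers. The part of other cell types in the Arnt2 values was not tested. Mural cell markers had a lower mean in APP/PS1 too, 11 of 11 with 10 at an unadjusted p under 0.05 by limma and 0 at an adjusted one, with summed levels of 9.29 to 10.04 log2 CPM in controls and 8.36 to 9.30 in APP/PS1. Their median difference was −1.39, −0.32, −0.66, −1.45 and 0.03 log2 units in pairs 1 to 5, so pair 5 did not share the lower level. Hif1an, the asparaginyl hydroxylase that restrains HIF activity, had a log2 fold change of −0.05, Hif3a, an alpha subunit with inhibitory forms, −0.05, and Cited2, which competes with HIF for its coactivators, 0.18 (adjusted limma p of 0.878, 0.947 and 0.734). P4htm, a membrane-bound prolyl hydroxylase, was lower in all 5 pairs, by a mean of −0.08 log2 units (SE 0.0417, adjusted p = 0.726 by limma), and Elob, the elongin B subunit of the VHL ligase, was at −0.14 (adjusted p = 0.673 by limma). Among the 18 regulators, 2 had the same sign in all 5 pairs, beside 7.99% of all genes.

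The receptors through which VEGF-A and adrenomedullin act ranged from 12.77 log2 CPM for Flt1 to 4.32 for Ramp3. Kdr, the signalling receptor for VEGF-A, stood at 42.7-fold the level of Vegfa per kb. The list held 8 receptor and coreceptor genes, of which Ramp1 was not analysed here, and of the other 7, 4 were higher and 3 lower, with a median of 0.02. Flt1, the decoy receptor, had a log2 fold change of 0.09, Kdr 0.08 and the coreceptor Nrp1 0.05. For the adrenomedullin receptor, the values were −0.08 for Calcrl, 0.02 for Ramp2 and −0.13 for Ramp3, each with an adjusted limma p of at least 0.868. Nrp2, a coreceptor known best from veins and lymphatics, was at 8.34 ± 0.17 and 7.93 ± 0.17 log2 CPM, a log2 fold change of −0.41 (SE 0.133, unadjusted p = 0.0222, adjusted p = 0.569 by limma). It was lower in 4 of 5 pairs, pair 5 being the exception.

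Of 32 further HIF target genes listed, 29 were measured, and 18 of these were higher and 11 lower in APP/PS1. Their median log2 fold change was 0.04, and by pair the median was 0.17, −0.09, 0.02, 0.14 and 0.02. An unadjusted p under 0.05 was reached by 2 of them, against 8.03% of all genes. Higd1a, which supports the respiratory chain in hypoxia, was higher in all 5 pairs, by between 0.04 and 0.44, with a log2 fold change of 0.21 (SE 0.0723, unadjusted p = 0.0300, adjusted p = 0.577 by limma). Car12, a carbonic anhydrase, was at a low level, with −0.02 log2 CPM in controls and −0.98 in APP/PS1, and had a log2 fold change of −0.96 (unadjusted p = 0.00630, adjusted p = 0.536 by limma), with 9 adjusted counts in the library where it was lowest. The Car12 difference was 0.11 log2 units in pair 2 and between −1.35 and −1.08 in the other 4. In those 4 pairs the oligodendrocyte marker sum and the astrocyte marker median were also lower. The oligodendrocyte median was −1.77, −0.01, −0.88, −1.34 and −1.30 log2 units in pairs 1 to 5. The astrocyte sum differed by −0.31, −0.04, −0.12, 0.31 and 0.17 log2 units in pairs 1 to 5. The part of these cells in the Car12 values was not tested. Ero1a, an oxidase of protein folding, was the other target gene with the same sign in all pairs, by between 0.05 and 0.10. Such genes numbered 2 of the 29, beside 7.99% of all genes. At the ends of the list stood Ankrd37 at 0.28 and Tfrc, the transferrin receptor, at 0.22, and on the lower side Ddit4, an inhibitor of mTOR, at −0.19. Ankrd37 rested on pair 1, where the difference was 1.65 log2 units, against −0.40 to 0.40 in the other pairs.

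Glycolytic genes controlled by HIF gave a similar picture. Of 17 listed, 16 were measured, 11 were higher and 5 lower, none had an unadjusted limma p under 0.05 (0 of 16 by this test and 0 after adjustment), and the median was 0.02. Slc16a3, the lactate exporter MCT4, was at 0.21 and Pfkp, a phosphofructokinase, at 0.16. On the lower side, Pfkfb4, which makes the activator of that enzyme, was at −0.15 and Eno1, an enolase, at −0.08. Slc2a1, the glucose transporter of the barrier, had 10.95 log2 CPM per kb, above Epas1, and a log2 fold change of −0.06. Eno1 belongs to the glycolytic genes with many processed pseudogenes, so its value is uncertain, and such genes enter the counts and median above.

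Genes that act with BNIP3 in mitophagy and apoptosis numbered 13, all measured, with 7 higher and 6 lower and a median of 0.0063. Bcl2l1, the survival protein BCL-XL, which BNIP3 binds, was higher in all 5 pairs, from 8.63 ± 0.10 to 8.88 ± 0.10 log2 CPM, a log2 fold change of 0.25 (SE 0.0826, unadjusted p = 0.0257, adjusted p = 0.571 by limma). Its pair differences were 0.13, 0.11, 0.33, 0.55 and 0.11. It was the only gene of the 13 with the same sign in all 5 pairs, which held for 7.99% of all genes. Bcl2, its relative in the same family, was at 0.16. Bnip3l, the close relative of Bnip3 and also a HIF target, was at −0.07 (SE 0.0550, adjusted p = 0.843 by limma) and was lower in 4 of 5 pairs, so it did not share the sign of Bnip3. Map1lc3a, an LC3 protein of the autophagosome membrane, was at −0.04.

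**Figure D4:**
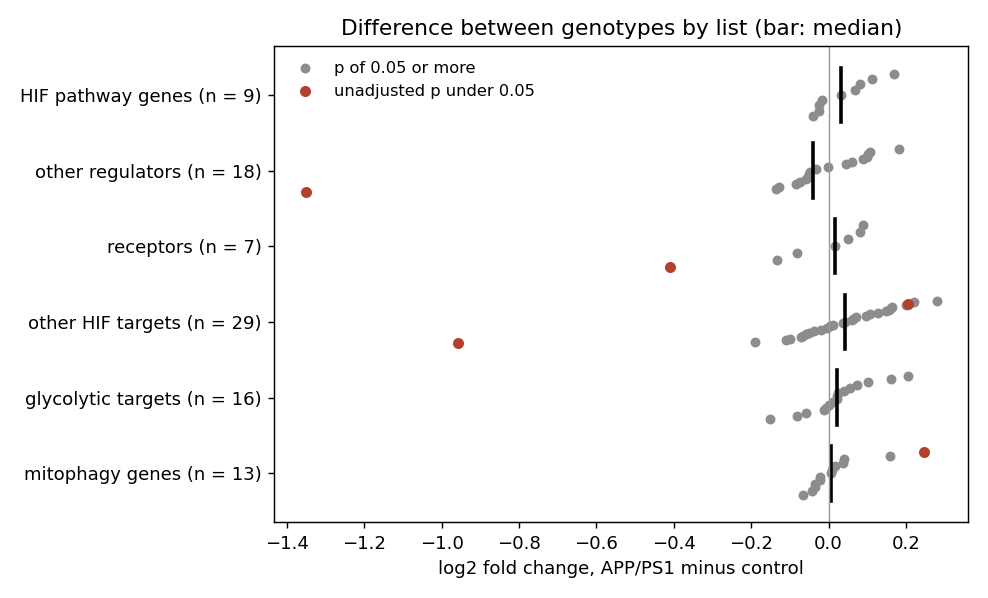
Log2 fold change (horizontal axis, APP/PS1 minus control) of each measured gene of the HIF pathway and of 5 related lists. Black bars give the medians, between −0.04 and 0.04, and red points the genes with an unadjusted p under 0.05, of which Arnt2 at −1.35 and Car12 at −0.96 lie far from the rest.

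The pairs did not differ from each other in the same way across the pathway. The widest departure from 0 was in pair 2 for Arnt, Egln1 and Vhl and in pair 4 for Egln2, Vegfa and Adm. In pair 2, Epas1, Adm, Vegfa and the median of the other HIF targets were lower in the APP/PS1 library and Egln1 and Vhl higher. In pair 4, Adm, Vegfa, Bnip3, Epas1 and the target median were higher and Vhl lower. Over all genes these pairs were not the most divergent, since the median absolute difference was 0.133 log2 units in pair 2 and 0.124 in pair 4, against 0.157, 0.126 and 0.111 in pairs 1, 3 and 5.

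**Figure D5:**
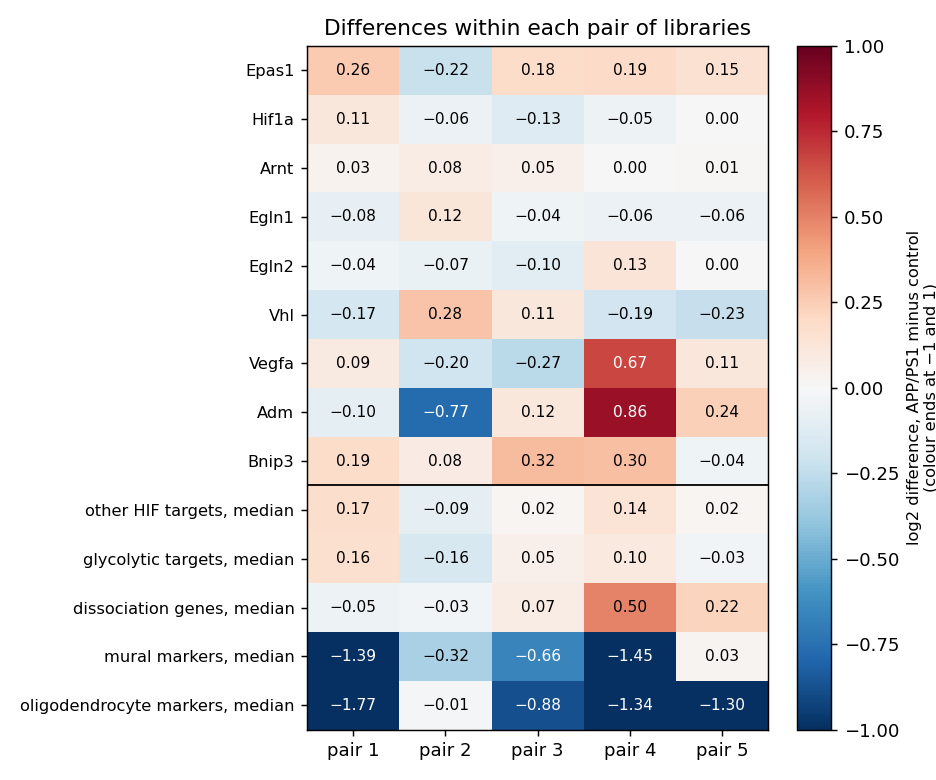
Log2 difference between the APP/PS1 and the control library (colour and printed value) in each of 5 pairs (columns) for the 9 HIF pathway genes and, under the line, for the medians of 5 gene lists. Pair 2 has the opposite sign to the other 4 pairs for Epas1 and Egln1, and Adm has its extremes of −0.77 and 0.86 in pairs 2 and 4.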

How the data were processed

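RNA of CD31+CD45− BECs was measured in 10 libraries, 5 per genotype. By the methods of the study and the labels, the authors used STAR for alignment to mm10, HTSeq for counts per gene, edgeR for filtering and log CPM, and ComBat for batch correction. Versions are not given in the sources used here. The deposited values are log2 CPM of 14106 genes, and the 10 single-library files equalled their columns of the table. With a mean prior count of 3, 100% of values in every library returned to whole adjusted counts (within 0.05). ComBat on log CPM, the order the methods give, would not in general leave whole counts, so the methods and the values conflict, and which correction made the values is not known. Adjusted counts are not reads, so no counting interval was computed from them.

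Libraries were grouped by the labels and paired by replicate number. This pairing was fixed in advance of the fits. The labels give 4 batches instead, with replicates 4 and 5 of both groups sharing batch 4. The 5 pairs were kept, and the deviations of same-numbered libraries were checked: they were correlated at −0.999 to −0.989 over 10873 genes, a sign fixed by the batch correction. Genotype and pair were terms of the linear model (lmFit and eBayes, limma 3.58.1 in R 4.3.3), fitted to all genes with Benjamini-Hochberg adjustment and a threshold of 0.05, leaving 4 residual degrees of freedom. Fold changes are on the log2 scale with the prior count, which understates changes of low genes. The fit was tested on simulated data. Single values were tested with a two-sided exact sign-flip permutation test. Symbols, positions and exon lengths came from GENCODE M21 (GRCm38), and promoters from RefSeq (GRCm38.p6), where 9 of the 10 genes had an entry. Marker sums are log2 of summed CPM.

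The genes and lists were chosen with earlier results of these data known. Named genes were all genes of the pathway and, of the target, glycolytic and mitophagy lists, those with an unadjusted p under 0.05, the same sign in all 5 pairs, or among the 2 highest or 2 lowest log2 fold changes. Of the regulator and receptor lists any gene could be named. Slc2a1, outside this rule, was named after its value was seen. The 3 genes most like the one with the widest range of pair differences, Adm, came from those whose mean level exceeded 2 log2 CPM. The 13 alternatives were a model without the pairs, 4 batches from the labels, eBayes with a trend, a mean of at least 1 log2 CPM, a prior count of 0.5, 2 other scalings, limma-voom on adjusted counts and each of the 5 pairs left out.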

Additional observations from a re-analysis of the deposited data

Results flagged for a closer look

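Each gene was checked in each group of 5 libraries for a highest or lowest library whose gap to the next exceeded 0.71 of the group's range. Of 18 groups, 4 held such a library. Chance gives about 0.9 in independent groups, but the 2 groups of a gene mirror each other, so these 18 are not independent. All 4 came from pair 2. Epas1 was 12.35 log2 CPM in control 2, the highest control, with the next at 12.16, and 12.13 in APP/PS1 2, the lowest APP/PS1 library, with the next at 12.32. Egln1 was 6.63 log2 CPM in control 2, the lowest control, with the next at 6.72, and 6.75 in APP/PS1 2, the highest APP/PS1 library, with the next at 6.68. Since the batch correction makes the libraries of a pair mirror each other, the 2 values of a gene stand for 1 unusual pair difference, not 2.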

How the results depend on the processing

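The count of genes called at an adjusted p under 0.05 was 0 with the pairs in the model, 648 without the replicate block, 1 with the 4 batches of the labels and 0 to 5 with a pair left out (5 without pair 2). It was 0 in the other alternatives, limma-voom included. The fit without the block sets the same spread against 8 residual degrees of freedom in place of 4, although the pair means had already been removed. No HIF pathway gene was among the calls in any of the 13 alternatives, and the lowest adjusted p was 0.0783, for Bnip3 without the block. The count of pathway genes with an unadjusted p under 0.05 was 0, and it was 1 without the block, with 4 batches, with a trend in eBayes, with a mean of at least 1 log2 CPM, with median-of-ratios scaling and with limma-voom, the gene being Bnip3. In the same order, the share of all genes in these fits was 21.6%, 11.4%, 8.23%, 7.24%, 7.93% and 7.27%. The pathway count was 0 to 1 with a pair left out. The gene was Epas1 without pair 2, beside 14.2% of all genes, and Bnip3 without pair 5, beside 6.66%. Of 117 log2 fold changes under alternatives, 111 kept their sign. The exceptions were Arnt at −0.0039 with total adjusted counts as scaling, which moved the median of all genes to −0.04, Hif1a at 0.00096 and Egln2 at 0.0043 without pair 3, Vegfa at −0.0667 and Adm at −0.13 without pair 4, and Vhl at 0.0070 without pair 5. With a pair left out, log2 fold changes ranged from −0.060 to 0.00096 for Hif1a, −0.053 to 0.0043 for Egln2, −0.12 to 0.007 for Vhl, −0.067 to 0.17 for Vegfa, −0.13 to 0.28 for Adm, 0.077 to 0.20 for Epas1, 0.023 to 0.042 for Arnt, −0.060 to −0.0099 for Egln1 and 0.13 to 0.22 for Bnip3. The cause of the changes of sign was not tested. The median of the other HIF targets lay between −0.02, without pair 4, and 0.07, without pair 2. The batch correction could not be undone from the deposited values.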
